A study of Mus musculus with 16 samples.

Results

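The genes described here encode the nuclear subunits of respiratory complexes II, III and IV, of cytochrome c and of ATP synthase (complex V). The group was set by name and by no cut on measured values, though earlier results of these data were known. It holds 41 listed genes. Of these, 4 belong to complex II, 9 to complex III, 1 is cytochrome c, 13 belong to complex IV and 14 to ATP synthase. Each was read through the brightest probe that matched a transcript of the gene. Of the 41 genes, 40 entered the comparison of days, out of 22152 features tested (14114 of them named genes). All 40 were well above background on every one of the 16 arrays. The remaining gene, Atp5d, had its only probe marked as an outlier on 1 array and is described separately.

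These proteins sit in the inner mitochondrial membrane. Complex II (succinate dehydrogenase) passes electrons from succinate to ubiquinone, complex III passes them on to cytochrome c, and complex IV (cytochrome c oxidase) hands them to oxygen. Complexes III and IV pump protons as they do so, and ATP synthase uses the returning protons to make ATP. Mitochondrial DNA encodes cytochrome b of complex III, the catalytic core of complex IV and part of the membrane sector of ATP synthase, whereas the genes here are nuclear. Several complex IV subunits have a form typical of heart and skeletal muscle and another found in most tissues. The soleus is a hindlimb muscle rich in slow, oxidative fibres and in mitochondria.

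The muscles came from male mice, and the labels used here name neither strain, genotype nor age. The day 0 group was taken before hypoxia (4 RNA samples on 6 arrays). The day 3 and day 7 groups (3 RNA samples each) were taken during and at the end of the first week, in which the O2 level went down gradually toward 10%. The day 14 group (4 RNA samples) followed a second week at that level. The design text gives 4 samples for each day, and those of days 3 and 7 that are not listed above were not analysed here. Separate mice are not stated as the source of the RNA samples, so the p-values measure the spread between these RNA samples, which may be technical.

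The arrays lay on 2 slides. Slide 1 held days 3 and 7 and day 0 RNA samples 1 and 2. Slide 2 held day 14 and all 4 day 0 RNA samples, so that day 0 RNA samples 1 and 2 were measured on both slides. Levels are log2 intensities relative to the 75th percentile of each array. Slide 1 arrays were brighter, with that percentile at 203 to 271, against 49.1 to 77.0 for slide 2 arrays. The same RNA did not read the same on both slides. From slide 1 to slide 2 the median of the 40 genes moved by 0.18 in day 0 RNA sample 1 (31 of 40 genes upward) and by 0.29 in RNA sample 2 (36 of 40 upward), against 0.11 and 0.15 over all features. On slide 1, RNA sample 1 lay above RNA sample 2 in 39 of the 40 genes. Every difference of days 3 and 7 from day 0, and of day 14 from day 7, rests on these 2 day 0 RNA samples, because the slide enters the model through them. The 9 slow fibre markers were all detected, as were 6 endothelial and 5 tendon markers. Of 4 brown adipocyte markers, Ucp1 and Elovl3 were well above background on 0 of 16 arrays.

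Promoter sequence is shown for 3 of the subunit genes described in most detail, because promoters of such genes are known for a few recurrent motifs. A link between these motifs and the differences between days was not tested. RefSeq gave a window for 32 of the 41 genes, and the 250 bases before the start site were searched on both strands. The motif of NRF-1, a regulator of nuclear genes for mitochondria, was searched as GCGCATGC and was found in 6 of 32 windows (18.75%), against 2.32% of all 27025 windows of that length. It lay before Atp5g2, Atp5k, Atp5l, Cox6a1, Cycs and Sdhb. The motif of the ETS family, which includes GABP, was searched as CCGGAAG and was found in 8 of 32 windows (25%), against 7.05% of all windows. It lay before Atp5e, Atp5h, Atp5l, Cox6a1, Cox6b1, Sdhd, Uqcr11 and Uqcrh. The core of the hypoxia response element, searched as ACGTG, was found in 10 of 32 windows (31.25%), against 16.6% of all windows. The Sp1 motif, searched as GGGCGG, was found in 7 of 32 windows (21.9%), against 32.9% of all windows. The TATA box, searched as TATAAA, was found in 1 of 32 (3.125%), against 13.0% of all windows. The YY1 motif, searched as AAGATGGCG, was found in 0 of 32, against 0.607% of all windows. The motif of oestrogen-related receptors, searched as TCAAGGTCA, was found in 1 of 32 (3.125%), against 0.366% of all windows. Such matches are a description of letters and not of binding. The 3 windows below are given 5′ to 3′ on the strand of the gene, from RefSeq on GRCm38.p6, with capitals for NRF-1 and ETS matches in Atp5l and Cox6a1 and for a CAGCTG E-box in Cox8b. CAGCTG was found in 2 of 32 windows (6.25%), against 12.8% of all windows.
Atp5l, chr9:44920743-44920992, minus strand: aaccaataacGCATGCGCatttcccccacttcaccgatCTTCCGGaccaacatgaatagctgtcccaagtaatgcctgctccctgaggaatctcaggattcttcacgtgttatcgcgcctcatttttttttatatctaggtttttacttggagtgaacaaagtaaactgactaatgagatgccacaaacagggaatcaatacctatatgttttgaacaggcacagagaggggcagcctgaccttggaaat
Cox6a1, chr5:115348959-115349208, minus strand: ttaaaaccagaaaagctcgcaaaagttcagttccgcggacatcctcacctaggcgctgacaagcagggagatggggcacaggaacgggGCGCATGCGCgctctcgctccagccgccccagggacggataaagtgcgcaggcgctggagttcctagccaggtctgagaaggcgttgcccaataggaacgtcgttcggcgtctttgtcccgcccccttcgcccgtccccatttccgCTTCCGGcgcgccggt
Cox8b, chr7:140900447-140900696, minus strand: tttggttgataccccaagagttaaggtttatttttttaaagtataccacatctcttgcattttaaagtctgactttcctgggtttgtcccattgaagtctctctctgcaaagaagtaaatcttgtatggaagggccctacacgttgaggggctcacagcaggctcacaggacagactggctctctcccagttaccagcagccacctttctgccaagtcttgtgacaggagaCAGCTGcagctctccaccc
Atp5l and Cox6a1 carried both the NRF-1 and the ETS letters within 250 bases, whereas the Cox8b window held neither.

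The first comparison asks how the subunit genes stood at day 7, at the end of the period of falling oxygen, relative to day 0. Of the 40 genes, 17 rose and 0 fell at an adjusted p under 0.05 by limma's moderated test, adjusted over all 22152 features. Over all features, 15.6% rose and 8.15% fell. The difference from day 0 was above 0 in 37 of 40 genes, and its median was 0.38 on the log2 scale (range -0.42 to 0.91), against a median of 0.09 over all features. The features tested include dim ones, which the 40 genes are not. Among probes well above background on all arrays, 40.7% of features were called in either direction, with a median of 0.14. In that setting 20 of the 40 genes rose and 1 fell, with a median of 0.38. In each RNA sample the median over the 40 genes, relative to the day 0 mean, was 0.48, 0.47 and 0.21 at day 7, against -0.09 to 0.12 at day 0. All 3 day 7 samples lay above all 4 day 0 samples. Gene by gene, 25 of 40 genes were higher in every day 7 sample than in every day 0 sample after slide adjustment, and 1 (Uqcrc1) was lower in every one, where 26.1% and 15.7% of all features showed this.

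This count depended on how the slide was treated and on single RNA samples. It was 7 of 40 without a slide term, where 14.8% of all features were called. It was 1 (Atp5l) on the arrays of slide 1 alone, where 9.44% of all features were called. It was 3 (Atp5l, Cox7a2 and Cox7b) without the slide 1 arrays of day 0, where day and slide cannot be told apart and 17.5% of all features were called. For the counts of 1 and 3 the share of the 40 genes called was below that of all features. Without day 0 RNA sample 2 the count was 0, with 107 features called in all, and without day 0 RNA sample 1 it was 7, with 11.8% of all features called. Leaving out day 7 RNA sample 1 gave 6, with 15.01% of all features called, and leaving out RNA sample 2 of that day also gave 6, with 11.8%. The median over the 40 genes was less dependent: 0.40 on slide 1 alone, 0.30 without day 0 RNA sample 2 and 0.20 without the slide 1 arrays of day 0. With arrays scaled on the probes detected on all arrays, the median of all features moved from 0.09 to -0.04. The median of the 40 genes moved to 0.25, and 11 genes rose and 2 fell, with 21.7% of all features called. In the deposited series table, 17 rose and 2 fell, with 20.4% of all features called. With quantile normalization 20 rose and 2 fell (20.8% of all features), and with normexp background correction 23 rose and 2 fell (23.1%). The count of 0 genes that fell in the full model therefore depended on the normalization. Single genes among the 17 were called in 6 (Atp5a1) to 24 (Atp5l) of 25 alternative settings.

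**Figure D1:**
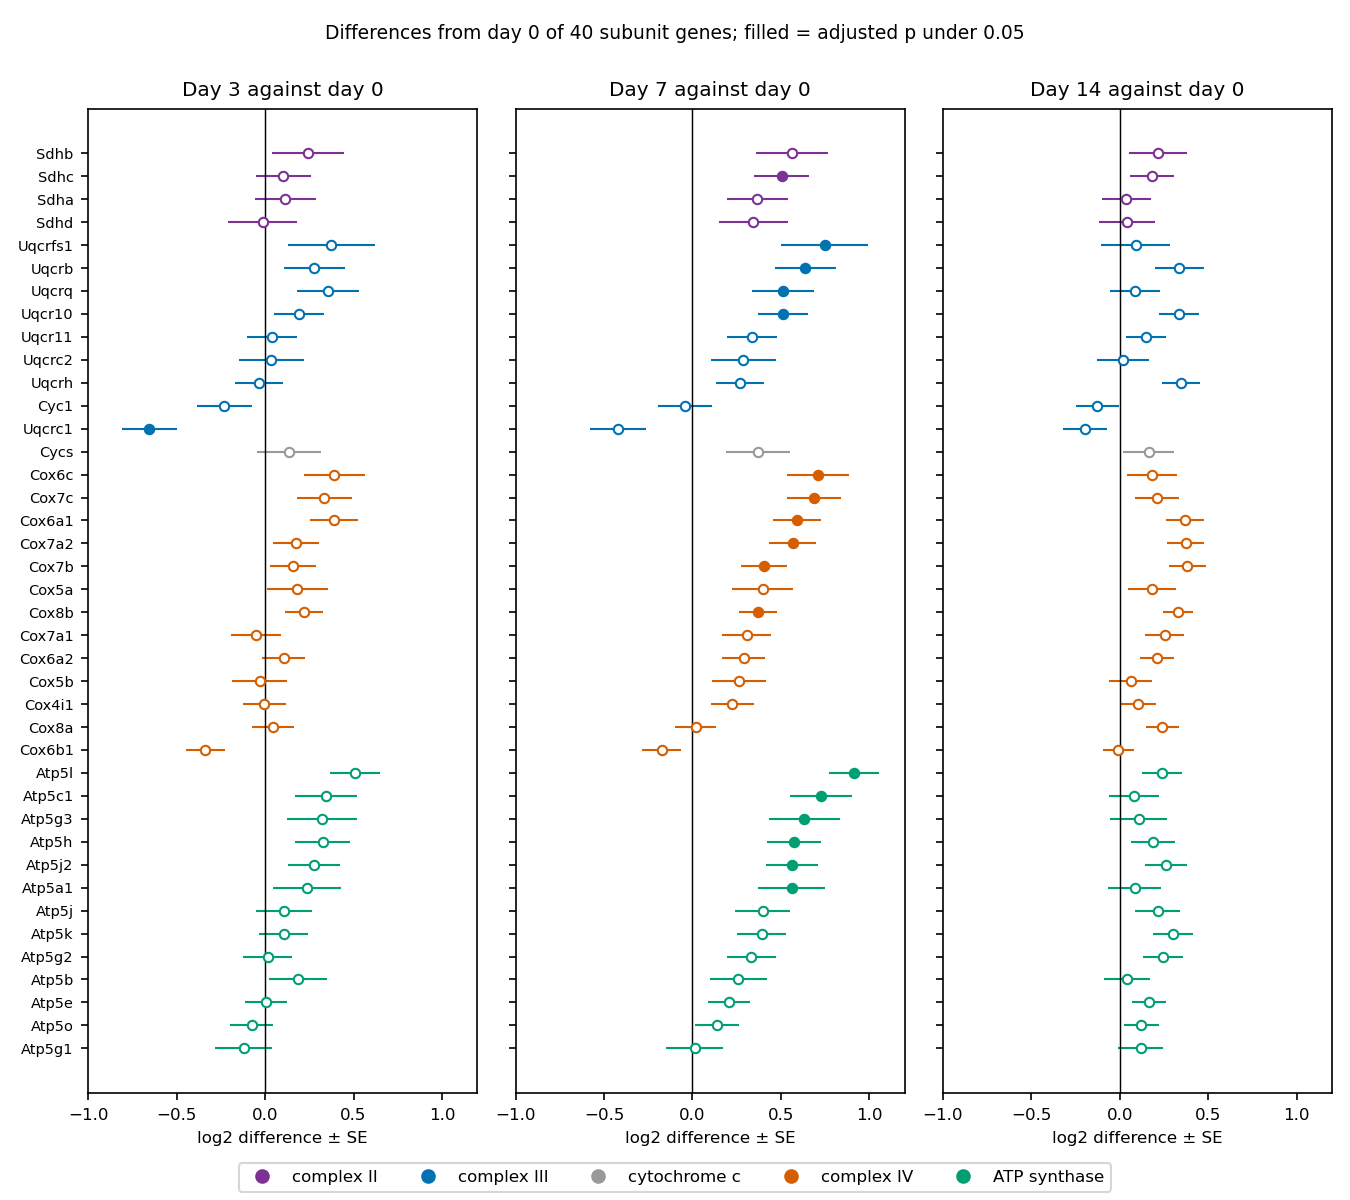
Log2 difference from day 0 with its standard error (horizontal axis) for each of the 40 subunit genes (vertical axis, by complex) at days 3, 7 and 14. Filled points passed an adjusted p of 0.05: 1 gene at day 3 (Uqcrc1, lower), 17 at day 7 (all higher) and 0 at day 14.

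**Figure D2:**
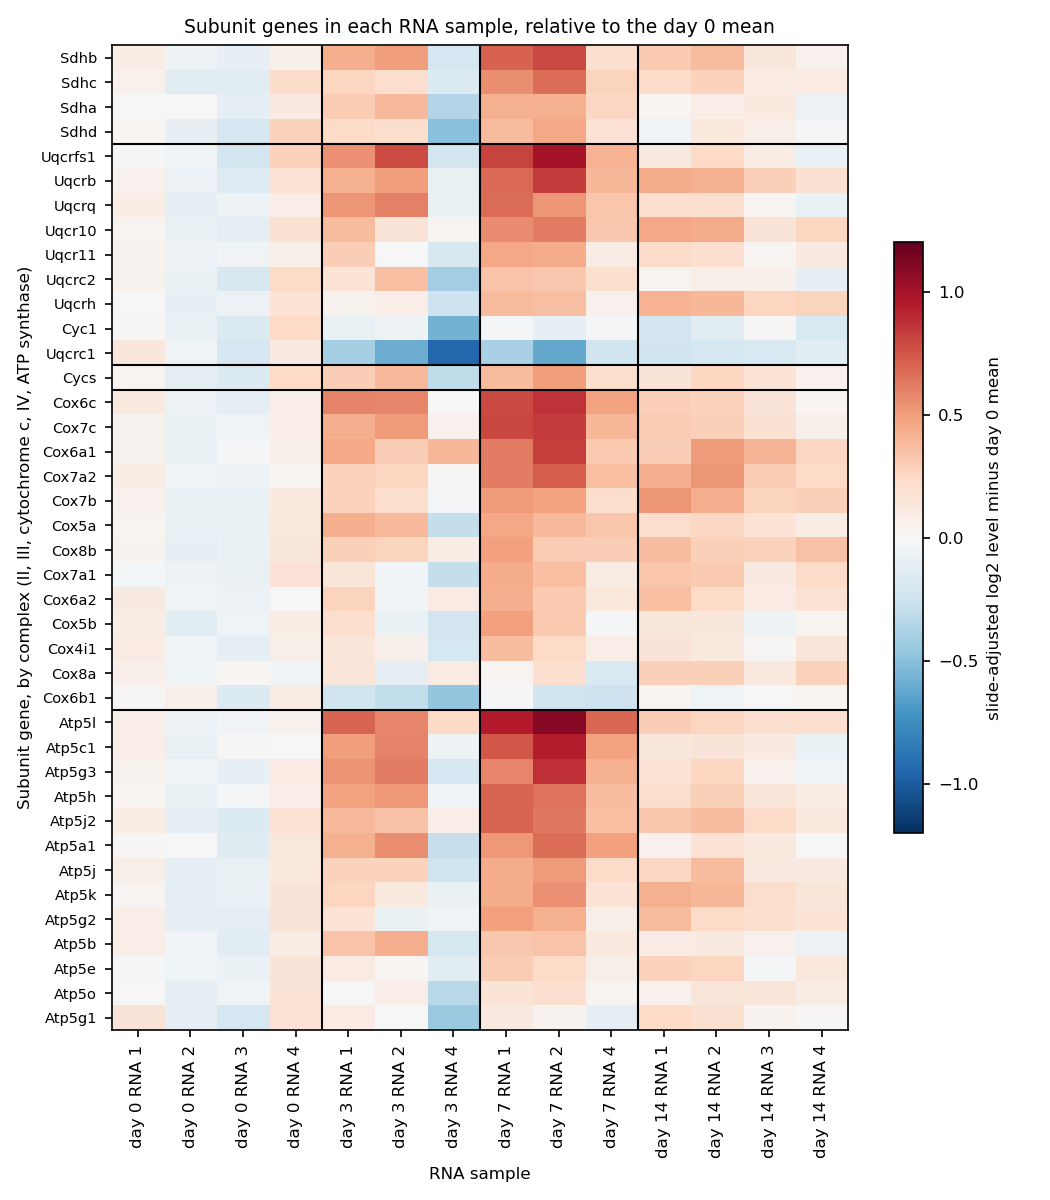
Slide-adjusted log2 level of each subunit gene (rows, by complex) in each RNA sample (columns, by day), minus its day 0 mean. Day 7 RNA samples 1 and 2 are the reddest columns, day 3 RNA sample 4 is mostly blue, and Uqcrc1 is blue in every sample of days 3, 7 and 14.

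At day 7 the medians of the complexes lay between 0.33 and 0.44. The median difference was 0.44 over the 4 genes of complex II, 0.33 over the 9 of complex III, 0.37 over the 13 of complex IV and 0.40 over the 13 fitted genes of ATP synthase. It was 0.37 for Cycs, cytochrome c itself, the mobile carrier between complexes III and IV. The complexes were not tested against each other. The genes that rose numbered 1 of 4 in complex II, 4 of 9 in complex III, 0 of 1 for cytochrome c, 6 of 13 in complex IV and 6 of 13 in ATP synthase. Over all features 15.6% rose, with a median of 0.09. Among probes well above background on all arrays, 40.7% were called in either direction, with a median of 0.14.

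**Figure D3:**
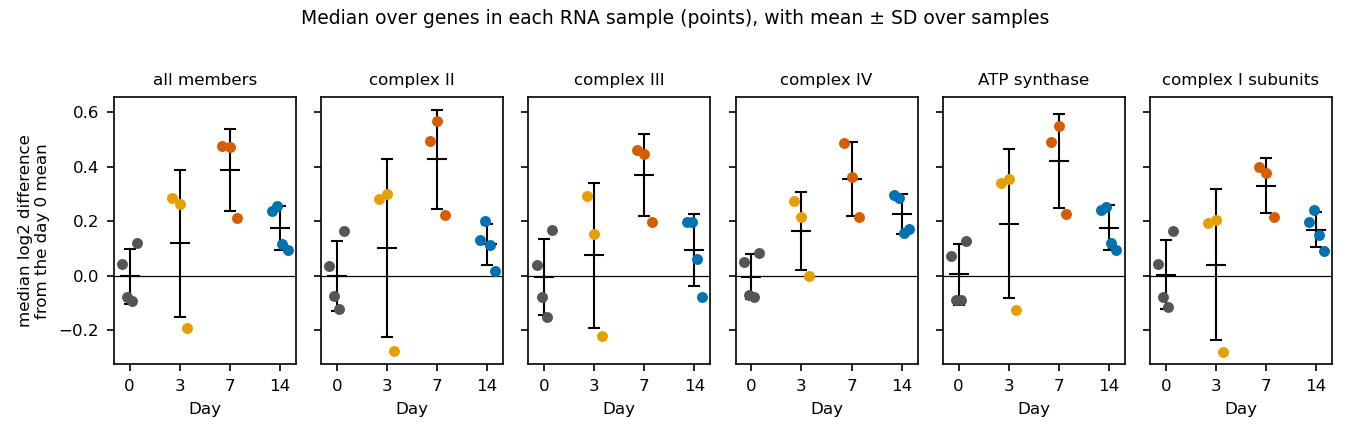
Median over the genes of each group in each RNA sample, relative to the day 0 mean (points; vertical axis, log2), with the mean and SD over RNA samples at each day (horizontal axis). Over all 40 genes the samples span -0.09 to 0.12 at day 0, -0.19 to 0.29 at day 3, 0.21 to 0.48 at day 7 and 0.09 to 0.25 at day 14, and RNA sample 4 is the lowest of day 3 in every panel.

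Among the 13 ATP synthase genes that were fitted, Atp5l, subunit g of the membrane sector, had the largest difference of the group. On slide 1 its level was 8.13 and 7.86 at day 0, 8.69, 8.58 and 8.23 at day 3, and 8.95, 9.09 and 8.69 at day 7. Slide 2 gave 8.46, 8.42, 8.40 and 8.49 at day 0 and 8.74, 8.70, 8.64 and 8.65 at day 14. Within each slide no later array overlapped the day 0 arrays. The difference at day 7 was 0.91 ± 0.14 (SE), with an adjusted p of 0.0024 by limma. The other 4 Atp5l probes gave 0.71 to 0.89 in the same comparison. Atp5l was called in 24 of 25 alternative settings, the exception being the fit without day 0 RNA sample 2.

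Atp5c1, the gamma subunit that forms the central stalk, had slide 1 levels of 5.79 and 5.53 at day 0, 6.16, 6.25 and 5.60 at day 3, and 6.41, 6.60 and 6.15 at day 7. Its day 3 sample 4 fell within the day 0 range while all day 7 samples lay above it. On slide 2 the levels were 6.04, 5.96, 6.02 and 5.995 at day 0 and 6.14, 6.16, 6.11 and 5.92 at day 14. The day 7 difference was 0.73 ± 0.17 (adjusted p 0.011, limma), and the second probe gave 0.66 ± 0.16. The remaining genes of ATP synthase that rose at day 7 were Atp5a1 (0.56 ± 0.19), the alpha subunit of the catalytic head, Atp5g3 (0.63 ± 0.20), a c-ring subunit, Atp5h (0.57 ± 0.15), subunit d of the peripheral stalk, and Atp5j2 (0.56 ± 0.15), subunit f. Atp5b, the catalytic beta subunit, gave 0.26 ± 0.16 with an adjusted p of 0.27.

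The c-ring of ATP synthase is built from 1 mature protein encoded by 3 genes, which differ in their import sequences. Atp5g1 had slide 1 levels of 9.64 and 9.32 at day 0, 9.57, 9.46 and 9.03 at day 3, and 9.58, 9.51 and 9.36 at day 7. Atp5g2 had 8.32 and 8.06 at day 0, 8.36, 8.13 and 8.15 at day 3, and 8.69, 8.63 and 8.28 at day 7. Atp5g3 had 8.67 and 8.54 at day 0, 9.14, 9.23 and 8.41 at day 3, and 9.19, 9.49 and 9.03 at day 7. Day 7 overlapped day 0 on slide 1 for Atp5g1 and Atp5g2 and not for Atp5g3. The day 7 differences were 0.01 ± 0.16 for Atp5g1, 0.33 ± 0.14 for Atp5g2 (adjusted p 0.10, limma) and 0.63 ± 0.20 for Atp5g3 (adjusted p 0.036, limma). A second Atp5g2 probe gave 0.56 ± 0.14 with an adjusted p of 0.016, so the Atp5g2 call differed between its probes. On slide 2 the day 14 levels were 10.03, 9.97, 9.84 and 9.80 for Atp5g1, 8.70, 8.55, 8.52 and 8.48 for Atp5g2 and 9.22, 9.31, 9.11 and 9.002 for Atp5g3. The day 0 levels there were 9.92, 9.70, 9.58 and 9.96 for Atp5g1, 8.36, 8.23, 8.21 and 8.48 for Atp5g2 and 9.07, 9.03, 8.95 and 9.15 for Atp5g3. None of these 3 genes passed the test at day 14, with differences of 0.12 ± 0.13, 0.25 ± 0.11 and 0.11 ± 0.16.

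In complex IV the genes that rose at day 7 were Cox6c (0.71 ± 0.17), Cox7c (0.69 ± 0.15), Cox6a1 (0.59 ± 0.14), Cox7a2 (0.57 ± 0.13), Cox7b (0.41 ± 0.13) and Cox8b (0.37 ± 0.11), all accessory subunits around the core encoded by mitochondrial DNA. Cox7c had slide 1 levels of 7.07 and 6.87 at day 0, 7.42, 7.49 and 7.03 at day 3 and 7.79, 7.83 and 7.38 at day 7. Cox7b had 8.26 and 8.06 at day 0, 8.45, 8.39 and 8.15 at day 3 and 8.69, 8.66 and 8.39 at day 7. Both genes were higher in every day 7 sample than at day 0, while day 3 sample 4 lay within the day 0 range. Cox4i1, a large subunit whose protein binds ATP, had 8.97 and 8.82 at day 0, 9.03, 8.94 and 8.67 at day 3 and 9.25, 9.11 and 8.96 at day 7 on slide 1. Its day 7 difference was 0.23 ± 0.12 with an adjusted p of 0.20 by limma. On slide 2 Cox4i1 read 9.12, 8.97, 8.90 and 9.08 at day 0 and 9.17, 9.13, 9.03 and 9.16 at day 14, with overlap between the days.

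Cox4i2, the isoform of that subunit known as responsive to oxygen in lung, is not among the 41 genes and went the opposite way. Its slide 1 levels were 1.07 and 1.14 at day 0, 0.51, 0.16 and 0.64 at day 3 and 0.79, 0.41 and 0.62 at day 7. Its slide 2 levels were 0.68, 0.63, 0.77 and 0.85 at day 0 and 0.89, 0.89, 0.73 and 1.104 at day 14. Cox4i2 fell by 0.70 ± 0.15 at day 3 (adjusted p 0.025, limma) and by 0.54 ± 0.15 at day 7 (adjusted p 0.024, limma), and its day 14 difference was 0.17 ± 0.12. The day 0 arrays of slide 1 were its highest of day 0, above all 4 day 0 arrays of slide 2.

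Of 3 isoform pairs of complex IV, the form found in most tissues is Cox6a1, Cox7a2 and Cox8a, and the muscle form is Cox6a2, Cox7a1 and Cox8b. Cox6a1 had slide 1 levels of 6.37 and 6.18 at day 0, 6.76, 6.59 and 6.69 at day 3 and 6.91, 7.12 and 6.60 at day 7. The slide 2 levels were 6.74, 6.68, 6.72 and 6.80 at day 0 and 7.03, 7.25, 7.15 and 6.98 at day 14. Cox6a1 did not overlap day 0 within its slide at any of the 3 days. Cox6a2 had 10.15 and 9.98 at day 0, 10.31, 10.01 and 10.14 at day 3 and 10.48, 10.36 and 10.17 at day 7 on slide 1. On slide 2 Cox6a2 read 10.50, 10.36, 10.32 and 10.40 at day 0 and 10.75, 10.62, 10.49 and 10.56 at day 14. Its day 7 arrays lay above both slide 1 day 0 arrays, by a difference of 0.29 ± 0.12 (adjusted p 0.10, limma).

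Cox7a2 had slide 1 levels of 6.80 and 6.57 at day 0, 6.94, 6.92 and 6.68 at day 3 and 7.29, 7.39 and 7.03 at day 7. On slide 2 it read 6.84, 6.77, 6.72 and 6.80 at day 0 and 7.21, 7.31, 7.08 and 7.02 at day 14. Day 7 and day 14 each lay above every day 0 array of the same slide, and the call at day 7 (adjusted p 0.0092, limma) was kept in 23 of 25 alternative settings. Cox7a1 had 9.29 and 9.22 at day 0, 9.42, 9.25 and 8.99 at day 3 and 9.73, 9.64 and 9.38 at day 7. On slide 2 Cox7a1 read 9.49, 9.49, 9.46 and 9.72 at day 0 and 9.88, 9.86, 9.65 and 9.78 at day 14. The day 0 RNA sample 4 array reached into the day 14 range, and the day 7 difference was 0.31 ± 0.14 (adjusted p 0.13, limma).

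In the third pair the muscle form had the larger difference. Cox8b had slide 1 levels of 9.31 and 9.13 at day 0, 9.53, 9.51 and 9.33 at day 3 and 9.73, 9.55 and 9.54 at day 7. Slide 2 gave 9.40, 9.31, 9.32 and 9.53 at day 0 and 9.77, 9.68, 9.67 and 9.75 at day 14. Every array of days 3, 7 and 14 lay above the day 0 arrays of its slide. Cox8a had 6.63 and 6.52 at day 0, 6.72, 6.46 and 6.67 at day 3 and 6.60, 6.78 and 6.39 at day 7 on slide 1. On slide 2 Cox8a read 6.56, 6.46, 6.53 and 6.47 at day 0 and 6.79, 6.79, 6.62 and 6.79 at day 14. At day 7 it overlapped day 0, with a difference of 0.02 ± 0.12, and its second probe gave -0.15 ± 0.12.

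The difference between the forms within an array was compared between days 0 and 14 on slide 2, where both days had 4 arrays and no slide adjustment entered. Cox6a1 relative to Cox6a2 was 0.16 higher at day 14 than at day 0 (exact permutation test, 2-sided p = 0.20). Cox7a2 relative to Cox7a1 was 0.12 higher (exact permutation p = 0.20), and Cox8a relative to Cox8b was 0.09 lower (a difference of -0.09, exact permutation p = 0.26). Over the 3 pairs the adjusted p was 0.26 for each. On slide 1 the same quantities at day 7 relative to day 0 were 0.33, 0.23 and -0.37, with 3 arrays against 2 and no test.

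**Figure D4:**
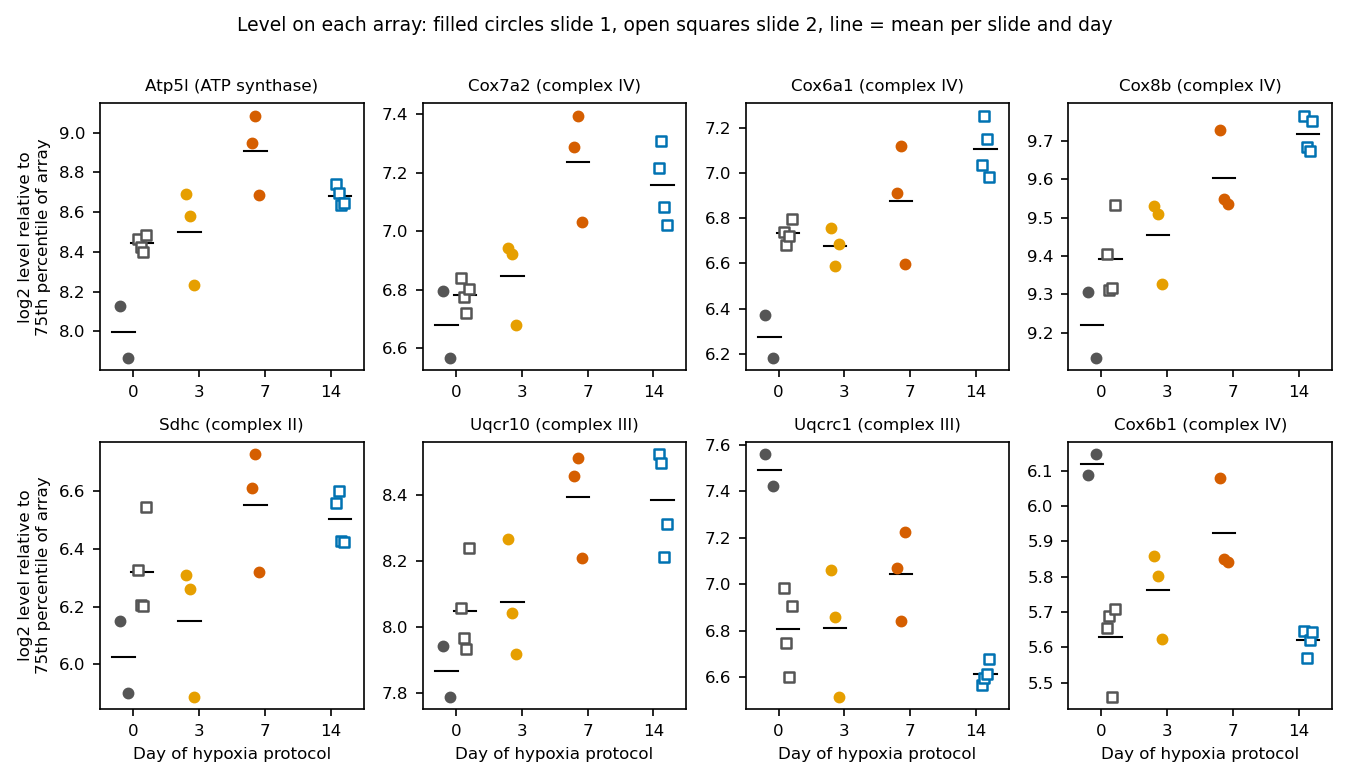
Log2 level relative to the 75th percentile of the array (vertical axis) on each array of days 0, 3, 7 and 14 (horizontal axis) for 8 subunit genes, with slide 1 as filled circles, slide 2 as open squares and the mean per slide and day as a line. For Atp5l the slide 1 day 0 arrays (8.13 and 7.86) lie below all others, and for Uqcrc1 they (7.56 and 7.42) lie above all others.

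In complex III the genes that rose at day 7 were Uqcrfs1, Uqcrb, Uqcrq and Uqcr10. Uqcrfs1, the Rieske iron-sulfur protein that passes electrons on toward cytochrome c1, had slide 1 levels of 6.89 and 6.75 at day 0, 7.39, 7.62 and 6.62 at day 3 and 7.66, 7.84 and 7.26 at day 7. On slide 2 it read 7.16, 7.23, 7.02 and 7.51 at day 0 and 7.34, 7.47, 7.32 and 7.15 at day 14. Day 7 lay above day 0 on slide 1 with a difference of 0.75 ± 0.24 (adjusted p 0.041, limma), day 3 sample 4 lay below day 0, and day 14 overlapped it. Uqcr10, a small subunit, had 7.94 and 7.79 at day 0, 8.27, 8.04 and 7.92 at day 3 and 8.46, 8.51 and 8.21 at day 7 on slide 1. On slide 2 Uqcr10 read 8.06, 7.97, 7.93 and 8.24 at day 0 and 8.52, 8.50, 8.21 and 8.31 at day 14. Its day 7 difference was 0.51 ± 0.14 (adjusted p 0.020, limma), and its other probes gave 0.17 ± 0.12 and 0.46 ± 0.13. Uqcrb (0.64 ± 0.17) and Uqcrq (0.51 ± 0.18), both accessory subunits, also rose, the latter in only 8 of 25 alternative settings.

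Uqcrc1, a core protein of complex III, was lower where most of the group was higher. On slide 1 its level was 7.56 and 7.42 at day 0, 7.06, 6.86 and 6.51 at day 3 and 7.07, 6.84 and 7.23 at day 7. On slide 2 it was 6.98, 6.75, 6.60 and 6.91 at day 0 and 6.57, 6.59, 6.61 and 6.68 at day 14. On slide 1 every later array lay below both day 0 arrays. Uqcrc1 fell by 0.65 ± 0.16 at day 3 (adjusted p 0.031, limma), and its differences were -0.42 ± 0.16 at day 7 (adjusted p 0.066) and -0.20 ± 0.12 at day 14. The same 2 day 0 RNA samples read lower on slide 2, by a fitted slide difference of -0.66 for this gene. Without the slide 1 arrays of day 0 the Uqcrc1 differences were 0.00 at day 3 and 0.24 at day 7, so the direction rests on those arrays. The day 3 call was also lost without day 0 RNA sample 1 or 2 and without day 3 RNA sample 2 or 4.

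**Figure D5:**
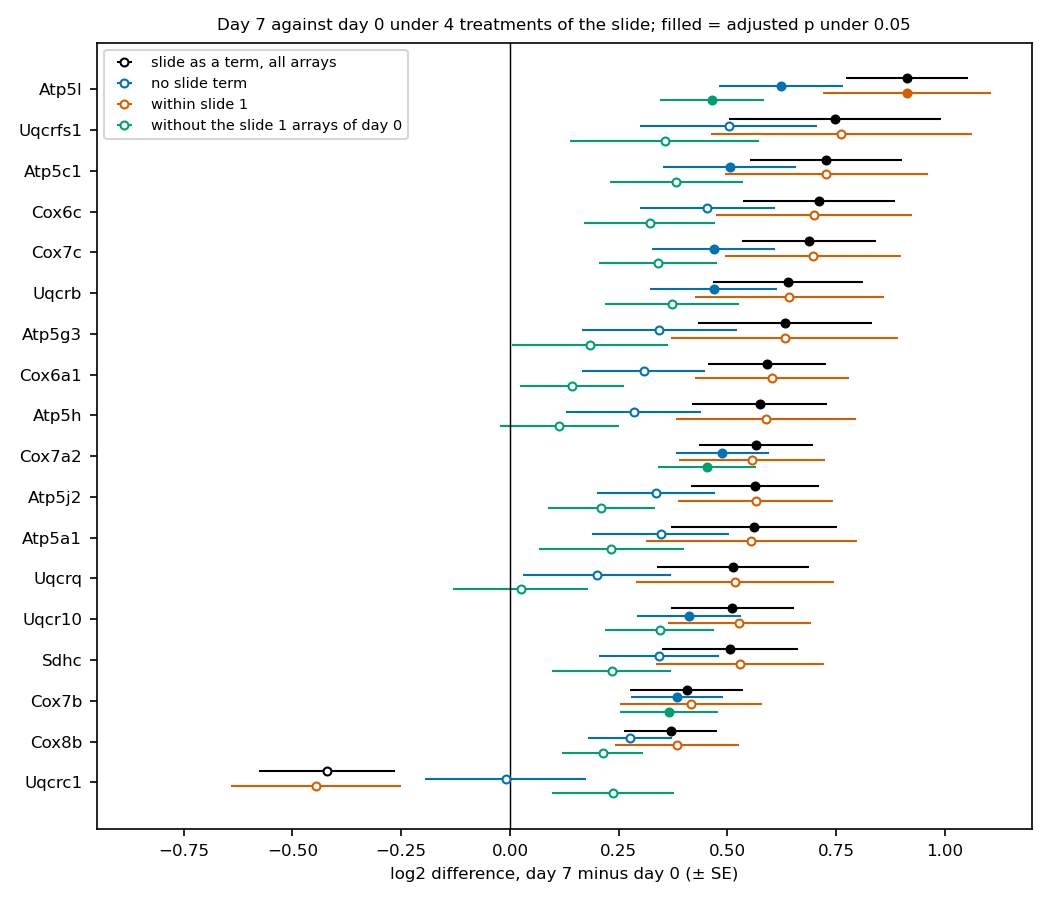
Log2 difference of day 7 from day 0 with its standard error (horizontal axis) for the 17 genes that rose and Uqcrc1 (vertical axis), under each treatment of the slide. Values within slide 1 sit on those of the full model with wider errors, values without the slide 1 arrays of day 0 are smaller, and Uqcrc1 changes sign between treatments. Atp5l is filled (adjusted p under 0.05) under every treatment shown.

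Atp5d, the delta subunit in the central stalk of ATP synthase, was fitted on the 15 arrays without a mark. On slide 1 it read 7.40 at day 0 (RNA sample 2, with 7.20 on the marked array of RNA sample 1), 6.90, 6.67 and 6.57 at day 3 and 6.90, 6.68 and 6.91 at day 7. On slide 2 it read 7.11, 6.98, 6.90 and 7.06 at day 0 and 6.70, 6.75, 6.82 and 6.91 at day 14. All slide 1 arrays of days 3 and 7 lay below day 0, and on slide 2 only the highest day 14 array reached the lowest day 0 array. Fitted this way, Atp5d fell by 0.70 ± 0.15 at day 3 (adjusted p 0.026, limma) and by 0.58 ± 0.15 at day 7 (adjusted p 0.016, limma). Its day 14 difference was -0.22 ± 0.10 (adjusted p 0.23). This fit was chosen after the data were seen, and at day 0 it has 1 array on slide 1. As for Uqcrc1, the same day 0 RNA read lower on slide 2: RNA sample 2 had 7.40 on slide 1 and 6.98 on slide 2. The dependence of the Atp5d differences on the treatment of the slide was not examined.

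Cox6b1, a complex IV subunit facing the intermembrane space, was, after Uqcrc1, the other of the 40 fitted genes that was lower at day 3 in every sample. It had slide 1 levels of 6.09 and 6.15 at day 0, 5.86, 5.80 and 5.62 at day 3 and 6.08, 5.85 and 5.84 at day 7. On slide 2 Cox6b1 read 5.65, 5.69, 5.46 and 5.71 at day 0 and 5.65, 5.57, 5.62 and 5.64 at day 14, with full overlap. Its differences were -0.34 ± 0.11 at day 3 (adjusted p 0.082, limma), -0.17 ± 0.11 at day 7 and -0.01 ± 0.09 at day 14. As for Uqcrc1, day 0 read lower on slide 2, with a fitted slide difference of -0.47. With no slide term the Cox6b1 differences were -0.04 at day 3 and 0.12 at day 7, so they depend on the slide term. The third gene below 0 at day 7 was Cyc1, cytochrome c1, at -0.04 ± 0.15, and at 0.13 with no slide term.

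In complex II only Sdhc, a membrane anchor that binds ubiquinone, passed the test at day 7. Its slide 1 levels were 6.15 and 5.90 at day 0, 6.31, 6.26 and 5.89 at day 3 and 6.61, 6.73 and 6.32 at day 7. On slide 2 Sdhc read 6.33, 6.21, 6.20 and 6.54 at day 0 and 6.56, 6.60, 6.43 and 6.43 at day 14. All day 7 arrays exceeded day 0 on slide 1, with a difference of 0.51 ± 0.16 (adjusted p 0.032, limma), but a second Sdhc probe gave 0.01 ± 0.18. The iron-sulfur subunit Sdhb gave 0.56 ± 0.20 (adjusted p 0.060), with 0.04 ± 0.19 on its second probe. The flavoprotein Sdha and the anchor Sdhd gave 0.37 ± 0.17 and 0.34 ± 0.20, and neither passed. Cycs had slide 1 levels of 7.93 and 7.72 at day 0, 8.14, 8.24 and 7.54 at day 3 and 8.22, 8.35 and 8.06 at day 7. On slide 2 Cycs read 8.02, 7.95, 7.87 and 8.28 at day 0 and 8.19, 8.30, 8.20 and 8.08 at day 14. Day 7 lay above day 0 on slide 1 and day 14 overlapped it on slide 2, and no Cycs difference passed the test. Of 15 genes of the group with more than 1 probe, 14 had the same sign at day 7 on all probes, and Cox8a did not.

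Day 3 against day 0 asks what had changed early in the fall of oxygen. No subunit gene rose and 1 fell (Uqcrc1), where 2.27% of all features rose and 3.82% fell. The median difference over the 40 genes was 0.12, with 30 above 0, against 0.06 over all features. The 3 RNA samples disagreed: their medians were 0.29 and 0.26 in RNA samples 1 and 2 and -0.19 in RNA sample 4. On slide 1, 37, 31 and 8 of the 40 genes lay above the day 0 mean in these samples. RNA sample 4 also stood apart in its macrophage markers, whose mean log2 level was 2.34 in it, 1.34 and 0.76 in day 3 RNA samples 1 and 2, and 0.98 to 1.57 at day 0. The mean level of the adipocyte markers was 1.72 in day 3 RNA sample 4, 2.59 and 2.52 in RNA samples 1 and 2, and 1.33 to 1.49 at day 0. The part of these differences in the result was not tested. Without RNA sample 4 the median of the 40 genes was 0.27, with 37 of 40 above 0, 8 genes rose and 0 fell, and 7.62% of all features were called. Without day 3 RNA sample 1 the median was 0.038, with 25 of 40 above 0, against 0.060 over all features. It was 0.057 without day 0 RNA sample 2, with 25 above 0, and 0.022 with no slide term, with 21 above 0. Cox6a1 and Atp5l were higher, and Uqcrc1 and Cox6b1 lower, in every day 3 sample than in every day 0 sample after slide adjustment, where 17.5% and 13.2% of all features were. The largest difference upward with all samples was that of Atp5l, 0.51 ± 0.14, with an adjusted p of 0.0503 by limma.

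Day 7 against day 3 was measured on slide 1 alone and needed no day 0 array. None of the 40 genes passed the test, with 12 at an unadjusted p under 0.05, where 0.447% of all features rose and 0.23% fell. The difference was above 0 in 39 of 40 genes, Cox8a being the exception, with a median of 0.29 against 0.05 over all features. Without day 3 RNA sample 4 the median was 0.12, with 35 of 40 above 0. Cox7a2 (0.39 ± 0.12, adjusted p 0.15), Atp5l (0.41 ± 0.13, adjusted p 0.17) and Sdhc (0.40 ± 0.14, adjusted p 0.21) had the smallest p-values. Sdhc, Cox7a2 and Cox8b were higher in every day 7 sample than in every day 3 sample, as were 11.2% of all features.

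Day 14 against day 0 asks what remained after a week of stable low oxygen, and on slide 2 it needed no adjustment. None of the 40 genes passed the test, with 13 at an unadjusted p under 0.05, where 0.293% of all features rose and 0.108% fell. The difference was above 0 in 37 of 40 genes, with a median of 0.18 (range -0.20 to 0.38) against 0.06 over all features. Other normalizations gave smaller medians: 0.043 in the deposited series table (24 of 40 above 0), 0.069 with quantile normalization (27 of 40) and 0.088 with normexp background correction (28 of 40). The sample medians were 0.24, 0.25, 0.12 and 0.09 at day 14, against -0.09 to 0.12 at day 0, so that the groups overlapped. In 10 genes every day 14 array lay above every day 0 array of slide 2, and in 0 genes below, where 10.0% and 4.09% of all features showed this. These were Uqcrb, Uqcrh, Cox6a1, Cox7a2, Cox7b, Cox8a, Cox8b, Atp5g2, Atp5h and Atp5l. The smallest p-values belonged to Cox8b (0.33 ± 0.08, adjusted p 0.086, limma), Cox7b (0.38 ± 0.10, adjusted p 0.093) and Cox7a2 (0.37 ± 0.10, adjusted p 0.098). On slide 2 Cox7b read 8.22, 8.16, 8.14 and 8.33 at day 0 and 8.75, 8.65, 8.48 and 8.50 at day 14, with no overlap. By complex, the day 14 medians were 0.11 in complex II, 0.09 in complex III, 0.21 in complex IV and 0.16 in ATP synthase.

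Day 14 against day 7 crosses the slides. Of the 40 genes 1 fell and 0 rose, where 1.12% of all features rose and 1.18% fell. Atp5l fell by 0.68 ± 0.16, with an adjusted p of 0.0497 by limma, and this call was kept in 9 of 24 alternative settings. The median over the 40 genes was -0.20, with 5 above 0, against -0.04 over all features. It was -0.012 without a slide term and without the slide 1 arrays of day 0. In 14 of the 40 genes every day 14 sample lay below every day 7 sample after slide adjustment, as in 18.4% of all features. Atp5c1 (-0.64 ± 0.20, adjusted p 0.097) and Cox7c (-0.48 ± 0.18, adjusted p 0.14) came next by p. On slide 2 Cox7c read 7.33, 7.28, 7.28 and 7.41 at day 0 and 7.63, 7.61, 7.51 and 7.39 at day 14. By the F-test over the 3 differences from day 0, 8 of the 40 genes passed (Atp5l, Cox7a2, Cox6a1, Cox8b, Cox7c, Cox7b, Uqcr10 and Uqcrc1), and 17% of all features did.

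Other genes of oxidative phosphorylation were counted in the same way at day 7, when 15.6% of all features rose and 8.15% fell, with a median of 0.09. These counts come from the full model, and their dependence on the slide and on single RNA samples was not examined. Of 36 complex I subunits, 12 rose and 0 fell, with a median of 0.34, and among them were Ndufb4 (0.82 ± 0.16), Ndufs6 (0.58 ± 0.12) and Ndufa5 (0.71 ± 0.17). Of 9 further subunits and isoforms of complexes III to V, 6 rose and 1 (Cox4i2) fell, with a median of 0.60. Atpif1, the inhibitor that blocks ATP hydrolysis by ATP synthase, rose by 0.69 ± 0.13 (adjusted p 0.0044, limma), and the small membrane subunits Atp5md and Atp5mpl rose by 0.61 ± 0.13 and 0.76 ± 0.17. Atpif1 was also higher at day 3, by 0.50 ± 0.13 (adjusted p 0.040, limma).

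Assembly factors help to build the complexes and are not part of them. Of 31 assembly factors of complexes II to V, 5 rose and 4 fell at day 7, with a median of 0.03, where 15.6% of all features rose and 8.15% fell with a median of 0.09. Sco2, a copper chaperone of complex IV, fell by 0.67 ± 0.13 at day 7 and by 0.82 ± 0.13 at day 3. Taco1, a translational activator of a complex IV core subunit, fell by 0.83 ± 0.19, and Atpaf2, which assembles the head of ATP synthase, fell by 0.51 ± 0.12. Cox20, a complex IV assembly factor, rose by 0.70 ± 0.17. Of 15 regulators of mitochondrial gene expression, 5 rose and 2 fell at day 7. Among them Twnk, the mitochondrial DNA helicase, fell by 0.68 ± 0.13, Tfb2m, a mitochondrial transcription factor, rose by 0.86 ± 0.17, and Polrmt, the mitochondrial RNA polymerase, rose by 0.42 ± 0.11. Twnk also fell at day 14, by 0.56 ± 0.11 (adjusted p 0.045, limma). Of 13 genes of the citric acid cycle, 2 rose at day 7 (Mdh2 by 0.64 ± 0.18 and Fh1 by 0.74 ± 0.21), with a median of 0.13. Of 15 carriers and membrane proteins, 4 rose and 1 fell, with Vdac1, the outer membrane channel, at 0.84 ± 0.18, Tomm20, an import receptor, at 0.75 ± 0.18 and Phb2, a prohibitin, at -0.56 ± 0.14. None of 11 genes of mitochondrial DNA was matched to a probe by name, and they were not analysed here.

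In a bulk muscle, fewer cells or fibres of a type and less RNA per cell cannot be told apart. Markers of other cells and of fibre types moved in the same samples, and their part in the results above was not tested. Each list is given by its mean log2 level over the markers in each RNA sample, after slide adjustment. Of all features, 2.27% rose and 3.82% fell at day 3, and 15.6% rose and 8.15% fell at day 7. At day 14, 0.293% of all features rose and 0.108% fell. The 2 fitted brown adipocyte markers, Cidea and Otop1, had a mean level of 0.31 to 0.62 at day 7, above the day 0 range of -0.27 to 0.18, and of -0.85 to -0.33 at day 14, below it. Neither passed the test at any day, with day 7 differences of 0.43 for Cidea (adjusted p 0.26, limma) and 0.67 for Otop1 (adjusted p 0.20, limma). Of 9 slow fibre markers 4 fell at day 7 (Casq2, Tnni1, Tnnc1 and Myoz2) and 0 rose, and their mean level was 8.35 to 8.54 at day 7 against 8.68 to 8.79 at day 0. The median difference of these 9 was -0.09 (range -1.05 to 0.15), with 3 above 0. Of 10 fast fibre markers 1 rose (Pvalb), and their mean level was 7.59 to 8.72 against 7.33 to 8.02. The median difference of these 10 was 0.20 (range -0.82 to 3.63), with 3 below 0, so the mean level does not stand for most markers. At day 3 Mylpf, a fast fibre marker, fell. Of 6 macrophage markers 3 fell at day 7 (C1qa by 1.62 ± 0.36, with C1qb and C1qc; Cd163 and Cd68 were not fitted), and their mean level was 0.15 to 0.40 against 0.98 to 1.57. The 8 adipocyte markers had a mean level of 1.72 to 2.59 at day 3, 1.29 to 2.35 at day 7 and 1.33 to 1.49 at day 0, and only Lep passed the test, at day 3. The 4 fitted erythroid markers had a mean level of 4.58 to 5.40 at day 14 and 3.12 to 3.76 at day 0, and 3 of them rose at day 14, Hbb-bt by 1.83 ± 0.24. At day 3 their mean level was 2.26 to 2.92, below the day 0 range, and Alas2 fell. The 6 endothelial markers had a mean level of 2.03 to 2.39 at day 7 and 2.18 to 2.36 at day 0, with Pecam1 lower at day 7. The 5 tendon markers had a mean level of 2.18 to 3.34 at day 14 and 2.80 to 4.27 at day 0, with Fmod lower at day 14.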

How the data were processed

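Total RNA of mouse soleus was labelled in 1 colour and hybridised to Agilent arrays. Per the file headers, Feature Extraction 11.0.1.1 gave the deposited spot intensity with background subtracted, and arrays were not scaled to each other. A further deposited table for the whole series, also of linear intensity, has near-equal column means, medians of 45.1 to 46.4 and unstated steps, and served as an alternative only. Intensities were put on the log2 scale, and the 75th percentile of each array's non-control spots was subtracted. Outlier-marked spots were left out and spots of a probe averaged. Of 55681 probes, 27637 were named through RefSeq and 37 lacked a value on some array. A probe was kept if it was well above background on 3 or more of the 16 arrays, and the brightest kept probe stood for a gene. The small number of RNA samples sets the precision.

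Days were compared with limma 3.58.1 (statmod 1.5.0, R 4.3.3), with day and slide as fixed terms and RNA sample as a random block (correlation 0.448, 11 residual and 2.45 prior degrees of freedom). Tests were 2-sided and adjusted by Benjamini-Hochberg over 22152 features. On simulated data with this layout, the day 7 comparison recovered 6% of features changed by 0.5, 62% of those changed by 1 and 88% of those changed by 2 on the log2 scale, with 8 false calls among 22152. Only 50 features of each size were changed there, whereas 5263 features were called at day 7 in the data. The adjustment was therefore stricter in the simulation, and its shares do not give the power of the real comparison. Figures were drawn with Matplotlib 3.10.9. The members, lists and tests were chosen with earlier results of these data known. Genes given on every array were, per comparison, the 3 called members with the largest difference (or the smallest p where fewer were called), the member with the smallest F-test p in each complex, and the tissue isoforms. Of the other lists, up to 3 called genes per comparison were given, by smallest p. Atp5d, Cox20 and the genes named beside counts were added after their values were seen. Alternatives covered slide, scaling, background correction, filter, probe choice, replicate numbers and each RNA sample left out. Normexp used the median spot signal in place of the mean signal.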

Additional observations from a re-analysis of the deposited data

Results flagged for a closer look

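Among 20 genes given in detail, each was examined in the groups of 4 RNA samples (days 0 and 14, slide 2), 40 groups in all, and 2 held an array apart from the other 3. Chance flags about 1 in 20 groups. Cox7a1 read 9.72 in day 0 RNA sample 4, with the next day 0 array at 9.49. Cox8a read 6.62 in day 14 RNA sample 3, with the next day 14 array at 6.79.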

How the results depend on the processing

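The number of subunit genes called at day 3 (1 with all arrays) was 3 in the deposited series table and with arrays scaled on the probes detected on all arrays, where 7.77% and 7.09% of all features were called. It was 4 with probes above background on all arrays (17.7% of all features), 5 with quantile normalization (7.32%), 8 with normexp background correction (11.01%) and 2 with the replicate block (6.05%). It was 0 with no filter on dim probes, with no slide term, within slide 1 and without the slide 1 arrays of day 0. It ranged from 0 to 8 with each RNA sample left out, and the 8 came without day 3 RNA sample 4 (7.62% of all features). At day 7 (17) it was 10 with no filter (10.1% of all features), 7 with no slide term (14.8%), 1 within slide 1 (9.44%) and 3 without the slide 1 arrays of day 0 (17.5%). With each RNA sample left out it was 0 (without day 0 RNA sample 2, 0.483% of all features) to 23 (without day 3 RNA sample 4, 26.1%). At day 14 (0) it was 10 with no slide term (14.0% of all features) and 1 with normexp (3.62%). For day 14 against day 7 (1) it was 2 in the series table (3.67% of all features), with quantile normalization (2.65%) and with the replicate block (5.18%). It was also 2 with probes above background on all arrays (11.2%) and without the slide 1 arrays of day 0 (18.9%). It was 3 with normexp (5.68%), and 0 with the mean over probes (1.80%), with no filter (0.771%) and with no slide term (11.8%). With each RNA sample left out it was 0 to 2, where 0.0226% to 5.46% of all features were called. For day 7 against day 3 it was 0 in all 25 alternatives.

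The median over the 40 genes moved by more than the spread between RNA samples in few settings. Without the slide 1 arrays of day 0 it was -0.083 at day 3 (0.12 with all arrays), 0.20 at day 7 (0.38) and -0.012 for day 14 against day 7 (-0.20), and with no slide term the last was also -0.012. Uqcrc1 at day 3 reversed, to 0.0033, without the slide 1 arrays of day 0. The causes were not tested. Whether the RNA sample numbers pair the samples could not be settled. Deviations of same-numbered samples correlated only weakly, at -0.15 to 0.17, above 0.1 in 6 of 19 pairs. Between days 0 and 14 each day 0 sample nevertheless correlated best with the sample of its own number, which often failed between other days. With the replicate block the day 7 count was 17. Where day 0 RNA sample 1 or 2 was left out, 1 RNA sample remained on both slides, the block correlation could not be estimated, and 0.448 was kept. Differences of 0.5 on the log2 scale were mostly not recovered in the simulation, which changed far fewer features than were called at day 7. In the data, smaller day 7 differences passed for Cox7b (0.41) and Cox8b (0.37).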
